A study of Mus musculus with 5 samples.

Results

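Fatty acid synthesis genes were examined in mouse bone marrow mesenchymal stem cells (MSC), stromal cells grown in primary culture in Mesencult medium. The rule took every probe set of the deposited expression table annotated to Elovl6, Scd2, Acss2, Scd1, Fasn, Acaca or Acly. It found 4 of the 2190 named genes of the table, with 8 of its 3373 probe sets: 2 for Elovl6, 3 for Scd2, 2 for Acss2 and 1 for Acly. Scd1, Fasn and Acaca were not analysed here. The genes were selected on these same values, in which Elovl6, Scd2 and Acss2 were already known to be lower in co-culture, so what follows on them is a description, with no test.

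The arrays, hybridised with biotin-labelled cRNA, came in 2 groups. In co-culture (2 arrays), MSC had spent 48 h in a transwell system with purified T cells that had been activated in vitro with anti-CD3/CD28, at 10 T cells per MSC. The other group was MSC alone (3 arrays). A transwell membrane keeps the cells apart and lets soluble products through. Strain, age and any pooling of animals were not given in the sources used here, and the arrays are labelled biological repetitions without saying whether they came from separate animals or cultures. The spread between arrays may therefore be technical in part.

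Cells build fatty acids from acetyl-CoA, which ATP citrate lyase (Acly) makes from citrate and cytosolic acetyl-CoA synthetase (Acss2) makes from acetate. Acetyl-CoA carboxylase and fatty acid synthase turn it into palmitate, using NADPH. Elovl6 then lengthens palmitate to stearate in the endoplasmic reticulum, and stearoyl-CoA desaturases such as Scd2 put the first double bond into saturated chains. Many genes of the pathway are known targets of the SREBP transcription factors, which cells hold back in the endoplasmic reticulum through Insig proteins.

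Start-site sequences are shown for Elovl6, Acss2 and Acly, the genes of the rule that were in the table and had a promoter sequence. The letters of their promoters can be read side by side. Each runs 5′ to 3′ along the gene's strand, from 250 bases before the start to 50 after it, and is taken from RefSeq (GRCm38.p6). Capitals mark CCAAT (NF-Y box) and GGGCGG (GC box) on either strand.
Elovl6, chr3:129532136-129532435, plus strand: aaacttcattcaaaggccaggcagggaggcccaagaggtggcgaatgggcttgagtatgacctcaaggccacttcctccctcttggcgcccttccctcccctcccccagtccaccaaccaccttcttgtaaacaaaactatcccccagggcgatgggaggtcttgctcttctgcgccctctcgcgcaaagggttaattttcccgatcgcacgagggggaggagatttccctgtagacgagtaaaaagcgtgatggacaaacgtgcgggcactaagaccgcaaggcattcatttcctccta
Acss2, chr2:155517793-155518092, plus strand: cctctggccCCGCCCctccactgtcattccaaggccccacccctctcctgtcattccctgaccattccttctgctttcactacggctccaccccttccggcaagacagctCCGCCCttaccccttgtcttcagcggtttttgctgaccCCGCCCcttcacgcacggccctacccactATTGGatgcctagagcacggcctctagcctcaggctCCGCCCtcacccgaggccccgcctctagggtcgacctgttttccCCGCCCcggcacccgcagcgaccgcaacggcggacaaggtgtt
Acly, chr11:100527951-100528250, minus strand: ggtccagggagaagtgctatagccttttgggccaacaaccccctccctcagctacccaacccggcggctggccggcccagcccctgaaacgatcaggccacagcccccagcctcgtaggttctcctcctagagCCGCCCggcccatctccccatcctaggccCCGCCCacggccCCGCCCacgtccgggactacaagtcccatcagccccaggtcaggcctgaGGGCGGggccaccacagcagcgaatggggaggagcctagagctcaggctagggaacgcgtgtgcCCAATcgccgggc
The Acss2 window held 1 CCAAT and 5 GGGCGG matches, and the Acly window held 1 CCAAT and 4 GGGCGG matches, none of them overlapping. The Elovl6 window held 0 matches to either. TCACNCCAC (a sterol regulatory element) and CACGTG (an E-box), searched on both strands, had 0 matches in the 3 windows. Of 32851 promoter windows of the same length, 37.4% held CCAAT, 35.7% GGGCGG, 1.24% TCACNCCAC and 7.15% CACGTG. These matches describe letters and are not binding sites. The G and C content was 55.7% for Elovl6, 65% for Acss2 and 68.7% for Acly.

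All values are log2 expression values made by the authors with RMA, which corrects background, normalises the arrays to each other and summarises the probes of a probe set. RMA gives no detection call and compresses low values. Every probe set of the table separated the groups, and the nearest arrays of opposite groups were never less than 0.34 apart (log2). The limma test called 100% of the 3373 probe sets at an adjusted p of 0.05, 51.3% lower and 48.7% higher in co-culture, so a call says nothing particular about a gene of this table. At least 2-fold lower were 35.3% of probe sets and at least 2-fold higher 27.5% (1189 and 926). After the arrays were centred on their medians, 961 were lower and 1167 higher by that much. This centring moved every difference up by 0.16 on the log2 scale.

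All 8 probe sets of Elovl6, Scd2, Acss2 and Acly were lower in co-culture, in a table where 51.3% were. The 7 probe sets of Elovl6, Scd2 and Acss2 were between 4.74-fold and 6.94-fold lower, and the Acly probe set 1.82-fold lower. Thus 7 of the 8 were at least 2-fold lower, beside 35.3% of all probe sets. The rule rests on this same contrast, so nothing is read from these shares. In bulk RNA, fewer cells of a type and less RNA per cell cannot be told apart.

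**Figure D1:**
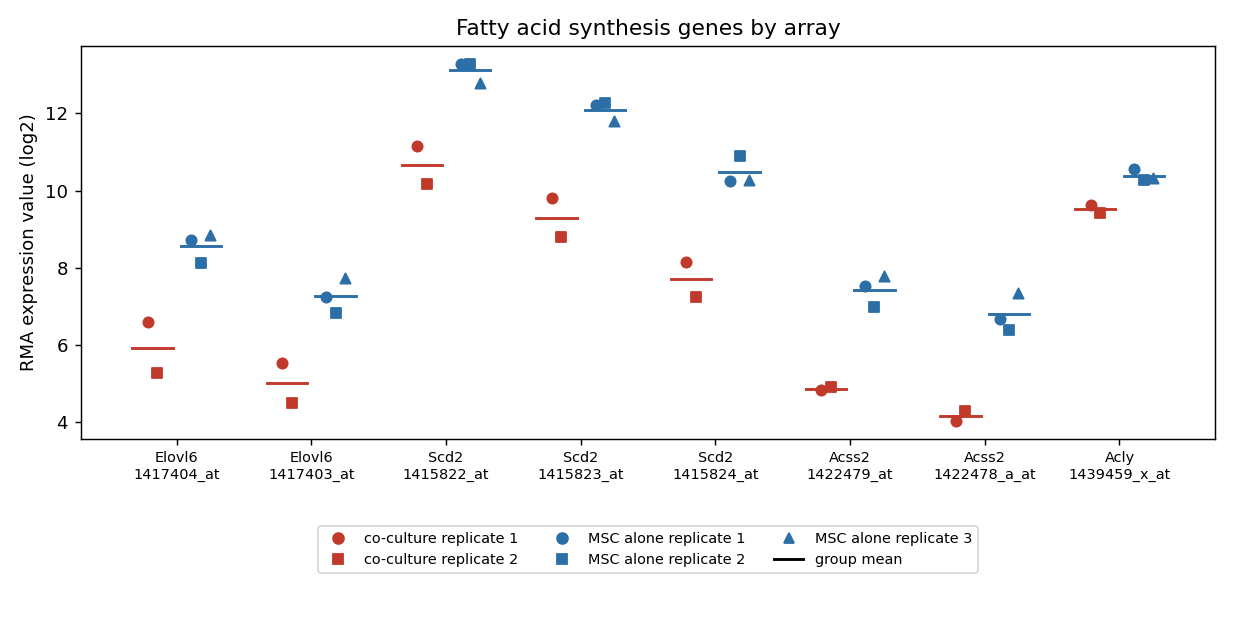
RMA expression values (log2, vertical axis) of the 8 probe sets of the 4 genes, with a point for each array, co-culture in red left of MSC alone in blue, and a bar at each group mean. The groups do not overlap in any of these probe sets, as in 100% of the 3373 probe sets of the table. The co-culture replicates lie 1.32 apart for Elovl6 (1417404_at) and almost on each other for Acss2 (1422479_at). Heights of different probe sets are not comparable.

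Among the genes that supply acetyl-CoA, Acss2 was lower in co-culture in both of its probe sets by nearly the same amount. Probe set 1422479_at read 4.83 and 4.92 in co-culture replicates 1 and 2, against 7.52, 6.998 and 7.80 in MSC alone replicates 1, 2 and 3. The co-culture arrays stood close together, and both lay at least 2.08 below every array of MSC alone. The mean was 4.88 ± 0.06 in co-culture (SD, n = 2) and 7.44 ± 0.41 in MSC alone (SD, n = 3), a difference of -2.56 ± 0.27 (limma SE) or 5.91-fold lower. The other probe set, 1422478_a_at, read 4.04 and 4.29 in co-culture, against 6.68, 6.40 and 7.35 in MSC alone. Its difference was -2.65 ± 0.31 (SE), 6.26-fold lower. In both probe sets MSC replicate 3 was the highest and replicate 2 the lowest of the controls. The lowest value anywhere in the table was 2.62, so the co-culture values of Acss2 were low ones, and without a detection call the size of this difference is uncertain.

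Acly, which makes acetyl-CoA from citrate, differed less. Its probe set 1439459_x_at read 9.63 and 9.41 in co-culture, against 10.56, 10.26 and 10.33 in MSC alone. The groups were 0.63 apart at their nearest arrays. The mean was 9.52 ± 0.16 in co-culture (SD, n = 2) and 10.38 ± 0.16 in MSC alone (SD, n = 3), a difference of -0.86 ± 0.19 (SE). Probe sets ending in _x_at can bind related transcripts, so this value is less sure to be that of Acly alone.

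Elovl6, the elongase of palmitate, was lower in both co-culture arrays, by an amount that differed between them. Probe set 1417404_at read 6.59 and 5.27 in co-culture, against 8.71, 8.14 and 8.85 in MSC alone. Both co-culture arrays lay at least 1.55 below every control, with replicate 2 well under replicate 1. The mean was 5.93 ± 0.93 in co-culture (SD, n = 2) and 8.56 ± 0.38 in MSC alone (SD, n = 3), a difference of -2.64 ± 0.43 (SE) or 6.22-fold lower. Without co-culture replicate 1 Elovl6 was 9.81-fold lower, and without co-culture replicate 2 it was 3.94-fold lower. The other probe set, 1417403_at, showed the same order of arrays, with 5.54 and 4.51 in co-culture against 7.25, 6.84 and 7.72 in MSC alone. Its difference was -2.25 ± 0.39 (SE), 4.74-fold lower, with co-culture values that were again low for this table. As in Acss2, MSC replicate 3 was the highest control and replicate 2 the lowest in both probe sets.

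Scd2, a stearoyl-CoA desaturase that lies in a cluster with other Scd genes in the mouse, was lower in co-culture in all 3 of its probe sets. Probe set 1415822_at read 11.14 and 10.18 in co-culture, against 13.28, 13.28 and 12.79 in MSC alone. The mean was 10.66 ± 0.68 in co-culture (SD, n = 2) and 13.12 ± 0.28 in MSC alone (SD, n = 3), a difference of -2.46 ± 0.33 (SE) or 5.49-fold lower. The nearest arrays of the groups were 1.65 apart, and co-culture replicate 2 was again the lower one. Probe set 1415823_at read 9.81 and 8.79 in co-culture, against 12.22, 12.27 and 11.80 in MSC alone, 6.94-fold lower. Probe set 1415824_at read 8.15 and 7.24 in co-culture, against 10.24, 10.91 and 10.28 in MSC alone, 6.85-fold lower. Unlike in Elovl6 and Acss2, MSC replicate 3 was the lowest control in the 2 probe sets 1415822_at and 1415823_at, and MSC replicate 2 was the highest in 1415824_at. Whether these probe sets also bind Scd1 or other Scd transcripts was not tested.

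The co-culture arrays differed in the same direction in all 5 probe sets of Elovl6 and Scd2. Replicate 1 exceeded replicate 2 by 1.04 and 1.32 on the log2 scale in the Elovl6 probe sets, and by 0.91, 0.96 and 1.01 in those of Scd2. In Acss2 replicate 1 minus replicate 2 was -0.09 and -0.25, and in Acly it was 0.23. Over the 1731 probe sets lower in co-culture the median of replicate 1 minus replicate 2 was 0.31, with quartiles of 0.03 and 0.64. The gaps of Elovl6 and Scd2 thus lay above the upper quartile and those of Acss2 below the lower one. This is a description of 2 arrays, without a test.

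For each gene, the 3 genes nearest in array profile were named from the 2190 genes of the table, using Euclidean distance over the 5 arrays after centring each gene on its own mean. For Elovl6 these were Pdgfrb, a receptor for platelet-derived growth factor, at a distance of 0.18, then Dclk1, a kinase gene, at 0.27 and Creb3l1, a membrane-bound transcription factor gene, at 0.37. Pdgfrb read 9.13 and 7.86 in co-culture against 11.17, 10.52 and 11.45 in MSC alone. For Scd2 they were Fam20a at 0.24, P4ha3, a subunit gene of prolyl hydroxylase, at 0.31 and Mapre2, a microtubule-binding protein gene, at 0.33. For Acss2 they were Pbk, a mitotic kinase gene, at 0.28, Cenpf, a kinetochore protein gene, at 0.33 and Nt5dc2 at 0.38. The named neighbours differed between the groups by -2.88 to -2.34. Profiles were not scaled, so this distance also follows the size of a gene's difference. The fatty acid synthesis genes were not each other's nearest genes. The distance was 0.91 between Elovl6 and Scd2, 1.00 between Elovl6 and Acss2, and 1.19 between Scd2 and Acss2. Scd2 ranked 76 among the neighbours of Elovl6, and Acss2 ranked 106.

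**Figure D2:**
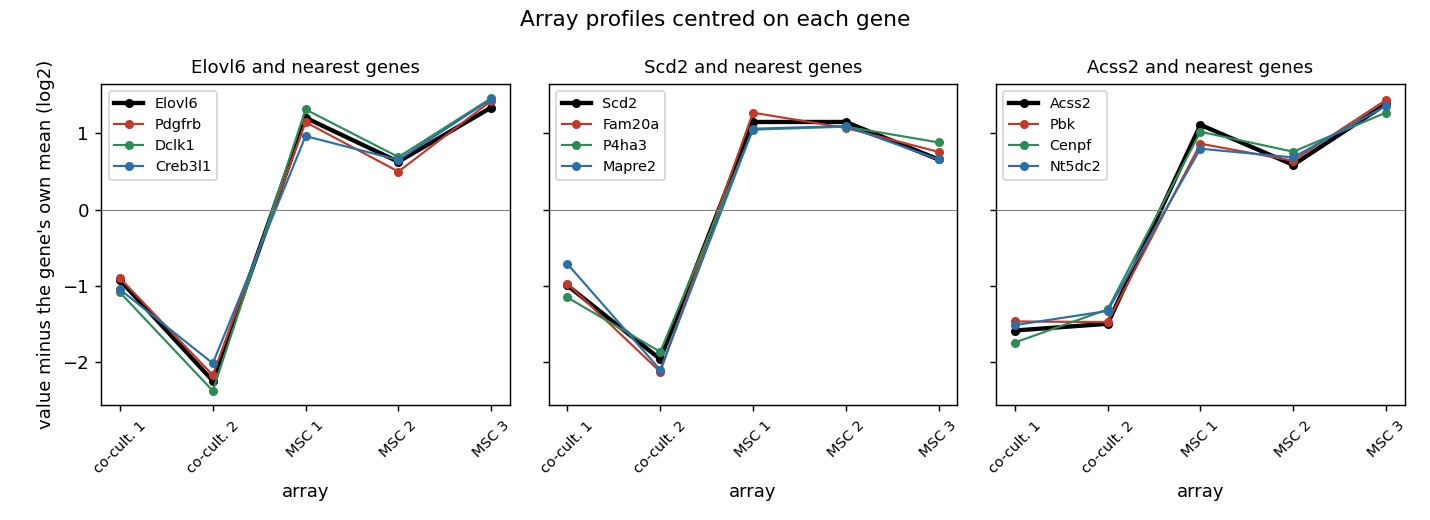
Values of each gene minus its own mean over the arrays (log2, vertical axis) by array, for Elovl6, Scd2 and Acss2 in black and the 3 nearest genes of each in colour. In Elovl6 and Scd2 and their neighbours co-culture replicate 2 lies below replicate 1. The neighbours were picked on these same arrays, and this order held for 886 of the 1133 genes lower in co-culture. Before its mean is subtracted, Acss2 reads 4.83 and 4.92 on the co-culture arrays.

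Of 35 other genes of fatty acid synthesis, elongation, desaturation and activation, 8 were in the table and 27 were not analysed here. Limma called 7 of the 8 lower and 1 higher, in a table of genes with 51.7% lower and 48.3% higher. The median difference was -1.10 on the log2 scale, beside -0.61 over all 2190 genes. As no gene of the table lies near zero and 51.7% are lower, that overall median sits at the upper edge of the lower genes. At least 2-fold lower were 5 of the 8, beside 35% of all genes, and at least 2-fold higher 1 of the 8, beside 26.3%. After the arrays were centred on their medians 3 of the 8 were at least 2-fold lower, beside 28.4% of all genes, and after quantile normalization 6 of the 8, beside 31.5%. The differences given for single genes in this and the following paragraphs come from the probe set of the gene that had the highest mean. Those of Elovl7, Hacd1, Idh1, Hadh, Cds2 and Dbi end in _s_at or _x_at and, like that of Acly, can bind related transcripts.

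The elongation cycle of the endoplasmic reticulum has a condensing step, run by Elovl enzymes, then a reduction, a dehydration and another reduction. A gene of each of these steps was in the table and lower in co-culture, in a table where 51.7% of genes were. Another elongase gene, Elovl7, was higher. Besides Elovl6, the ketoacyl reductase gene Hsd17b12 differed by -0.86 ± 0.19 (SE). It read 9.49 and 9.18 in co-culture, against 10.18, 10.10 and 10.31 in MSC alone. The dehydratase genes Hacd1 and Hacd2 differed by -1.22 ± 0.22 and -1.13 ± 0.23, and the enoyl reductase gene Tecr by -0.85 ± 0.20. Hacd2 was low in co-culture, at 4.85 and 4.92, so the size of its difference is uncertain. The other probe sets of Hacd1 and Tecr differed by -1.30 and -0.69. Elovl5, an elongase of polyunsaturated chains, was 2.10-fold lower, with 9.33 and 8.92 in co-culture against 10.02, 10.05 and 10.50 in MSC alone.

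Elovl7, an elongase of long saturated chains, was the 1 gene of the list that was higher. It read 8.12 and 8.53 in co-culture, against 7.28, 7.19 and 7.29 in MSC alone, a difference of 1.08 ± 0.20 (SE). Its other probe set was higher by 1.05. The front-end desaturase genes Fads1 and Fads2, which act on polyunsaturated chains, were 2.35-fold and 2.27-fold lower, beside 5.49-fold for Scd2. Fads1 read 9.24 and 9.32 in co-culture, against 10.83, 10.40 and 10.31 in MSC alone. Fads2 read 7.19 and 6.99 in co-culture, against 8.19, 8.17 and 8.45 in MSC alone. The other probe sets of Fads1 and Fads2 differed by -1.23 and -1.46.

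Of 10 genes that supply NADPH, 2 were in the table, and limma called both lower, in a table where 51.7% of genes were. Idh1, the cytosolic isocitrate dehydrogenase, read 8.19 and 7.81 in co-culture, against 10.18, 9.78 and 10.30 in MSC alone. Its difference was -2.09 ± 0.24 (SE), or 4.25-fold lower, and its other probe set was 5.65-fold lower. Me1, the cytosolic malic enzyme, read 9.08 and 9.36 in co-culture, against 10.52, 10.15 and 10.45 in MSC alone, 2.22-fold lower.

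Of 18 regulators of lipid synthesis, 5 were in the table, and limma called 1 lower and 4 higher, beside 51.7% and 48.3% of all genes. Insig2, which retains SREBP precursors in the endoplasmic reticulum, read 11.26 and 11.99 in co-culture, against 10.03, 10.58 and 9.67 in MSC alone. Its difference was 1.53 ± 0.35 (SE), or 2.88-fold higher. Its arrays did not overlap between groups, as in 100% of the genes of the table. Srebf2, which encodes the SREBP form known for sterol synthesis, read 8.70 and 8.69 in co-culture, against 9.85, 9.59 and 9.29 in MSC alone, 1.85-fold lower. Mlx, a partner of the carbohydrate-response factor, was higher by 0.98 ± 0.23, Usf1, an E-box binding factor, by 1.04 ± 0.20 and the coactivator gene Ppargc1b by 1.03 ± 0.22. The other probe sets of Mlx and Usf1 were higher by 0.94 and 1.15. The remaining 13 regulators, Srebf1, Insig1, Scap and Mlxipl among them, were not analysed here.

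**Figure D3:**
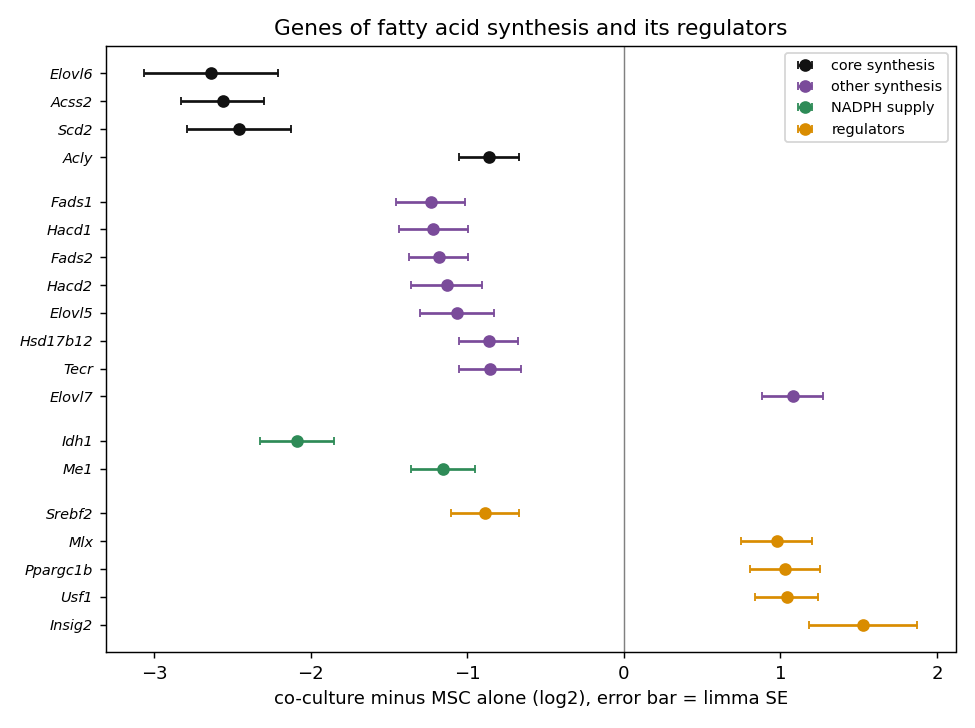
Difference of co-culture minus MSC alone (log2, horizontal axis, error bars limma SE from 2 and 3 arrays) for each gene of the 4 lists nearest the pathway, coloured by list. Synthesis and NADPH supply genes lie left of zero except Elovl7 at 1.08, and the regulators lie right of zero except Srebf2 at -0.89.

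Cholesterol synthesis shares acetyl-CoA and SREBP control with fatty acid synthesis. Of 25 listed genes of cholesterol synthesis and uptake, 9 were in the table. Limma called 8 of them lower and 1 higher, beside 51.7% and 48.3% of all genes, and the median log2 difference was -1.72. Stard4, a sterol carrier, was 3.83-fold lower, Lss, lanosterol synthase, 3.78-fold, Cyp51, a sterol demethylase, 3.40-fold and Idi1, isopentenyl diphosphate isomerase, 3.32-fold lower. The 1 higher gene, named after its value was seen, was Ggps1, which makes geranylgeranyl diphosphate. With a gene's probe sets averaged, the list median was -1.19. Stard4 and Lss were lower in co-culture replicate 2 than in replicate 1, by 0.79 and 1.11, as Elovl6 and Scd2 were, while Cyp51 read 7.35 and 7.76 on these arrays. That order of the replicates was common: it held for 886 of the 1133 genes lower in co-culture. Among the 34 listed lipid genes that were lower it held for 24.

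Of 25 listed fatty acid oxidation genes 9 were in the table, 8 called lower and 1 higher by limma, beside 51.7% and 48.3% of all genes, with a median of -1.04. Decr1, a dienoyl-CoA reductase, was 3.60-fold lower, but its co-culture values, 4.41 and 3.53, were low ones and the size is uncertain. The acyl-CoA dehydrogenase gene Acadm was 3.18-fold, Hadh 2.36-fold and the thiolase gene Acaa2 2.25-fold lower. Acadl, named after its value was seen, was the 1 higher gene, by 0.83. Glycerolipid synthesis and storage had 7 of 25 genes in the table, 3 called lower and 4 higher, a split near that of all genes. Their median of 0.84 is the smallest of the 4 higher values, as no gene lies near zero. Pnpla2, which encodes a lipase that breaks down stored triglyceride, was 2.67-fold higher, and Cds2, which makes a phospholipid precursor, 2.13-fold higher. Agpat5 and Lpcat3, acyltransferase genes, were 2.02-fold and 1.99-fold lower. Of 15 genes of fatty acid uptake and binding 2 were in the table: Dbi, an acyl-CoA binding protein gene, was 2.79-fold lower and Mfsd2a, a lysolipid transporter gene, 2.49-fold higher.

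**Figure D4:**
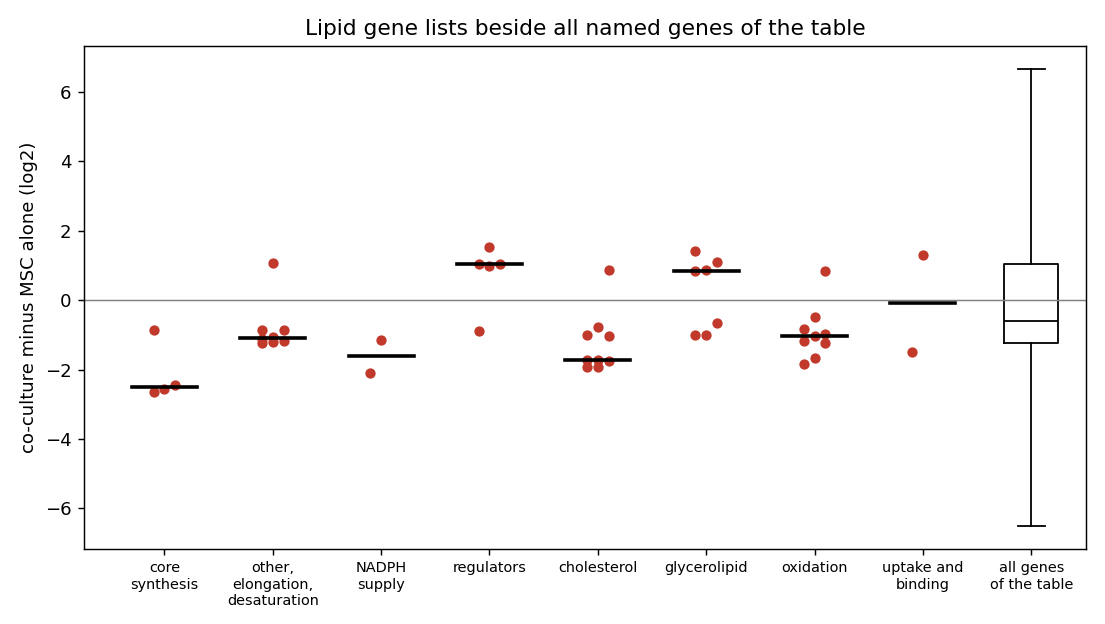
Difference of co-culture minus MSC alone (log2, vertical axis) for every listed gene in the table, a point each, with a bar at the list's median. The box at the right shows all 2190 named genes (quartiles, with whiskers to the lowest and highest). The 8 other synthesis genes have a median of -1.10 and the 9 oxidation genes -1.04. Of the 4 core genes, at a median of -2.51, Elovl6, Scd2 and Acss2 were chosen with their low values known. The median of all genes, -0.61, reflects a table without values near zero.

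Markers of other cell types that could carry lipid genes were looked for in the table. None of 12 adipocyte, 13 T cell or 7 endothelial marker names was in it (0 of each), so these cell types were not analysed here. Of 13 macrophage and monocyte marker names 2 were in it, Ctss and Mpeg1 (1 other gene stands there under both an old and a current symbol). Their mean level was 8.03 and 7.35 in co-culture, against 3.74, 4.24 and 4.03 in MSC alone. Their part in the lower values of Elovl6, Scd2 and Acss2 was not tested. Of 12 MSC and stromal markers 6 were in the table, with Cd44, Col1a1, Cxcl12 and Pdgfrb lower and Pdgfra and Vcam1 higher in co-culture. The mean level of these 6 was 9.39 and 9.33 in co-culture, against 10.16, 10.00 and 10.01 in MSC alone.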

How the data were processed

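The authors deposited log2 probe set values. RMA made them, per the submitters' processing notes, and its version is not stated. The table holds 3373 probe sets, all separating the groups, and the sources used here do not say how they were selected. The platform's probe annotation gave 1 symbol for 3013 probe sets, several for 69 and none for 291; 3010 were found in RefSeq by Entrez identifier, and 0 symbols changed. No probe set with several symbols held a gene of the rule. These gave 2190 genes, each represented by the probe set of highest mean.

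Limma 3.58.1 under R 4.3.3 (lmFit, eBayes, two-sided, Benjamini-Hochberg, threshold 0.05) was fitted over all probe sets, and again over all genes, with all 5 arrays and no covariate. It was also run on simulated data, which were not selected for separated groups and so cannot show its errors in this table. Selection for separated groups favours small spreads, so errors may be too small and differences too large. The number of arrays limits the precision. The genes and lists were chosen with earlier results of these data known. Named were all genes in the table of the 4 lists nearest the pathway, the 4 with the largest differences of each other list, and the 3 nearest profiles; Ggps1, Acadl and the markers stand outside this rule. Promoters of Elovl6, Acss2, Acly, Fasn and Acaca were found; not Scd2 or Scd1.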

Additional observations from a re-analysis of the deposited data

How the results depend on the processing

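No probe set of the table changed direction (0 of 3373) under any of these alternatives: centring, quantile normalization, no moderation, trended and robust moderation, array weights, the replicate block, leaving out each array, and leaving out the dimmest 25% of probe sets, which kept 2530. For most of them this was fixed beforehand. Because the groups overlap in no probe set, array weights, the replicate block and leaving out an array cannot reverse a difference. Moderation and leaving out dim probe sets do not alter differences, and centring moved them by 0.16, under the smallest gap of 0.34. Only quantile normalization could have reversed one. The difference of Acly was -0.86 on the log2 scale. With each array centred on its median it was -0.70, by the 0.16 that centring added to every difference. After quantile normalization it was -1.06, and the cause of that change was not tested. Leaving out 1 array at a time gave -3.29 to -1.98 for Elovl6, -2.94 to -1.98 for Scd2, -2.78 to -2.39 for Acss2 and -0.98 to -0.75 for Acly; the limits of Elovl6 and Scd2 come from leaving out co-culture replicate 1 or 2. Averaging a gene's probe sets moved the cholesterol list's median to -1.19. Replicate numbers are shared by the groups, but nothing says that they pair the arrays. Deviations of same-numbered arrays correlated at 0.22 and 0.32 over probe sets in 2 pairs. With 2 co-culture arrays the deviations mirror each other, so the crossed pairs gave -0.22 and -0.32. Co-culture replicate 1 with MSC alone replicate 3 gave 0.11. These values do not decide whether the arrays are paired. In the replicate block, MSC alone replicate 3 has no co-culture partner and drops out of the difference. The block therefore gave the same differences as leaving that array out: -2.50 for Elovl6, -2.62 for Scd2, -2.39 for Acss2 and -0.89 for Acly. With it 1729 probe sets were called lower and 1636 higher. Without moderation 1676 and 1605 were called. Low signal, without detection calls, limits the sizes for Acss2, Elovl6, Hacd2 and Decr1.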
